A study of Mus musculus with 12 samples.

Results

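The genes described here encode enzymes and transporters of bone mineralization and phosphate handling. They are Alpl, Phospho1, Enpp1, Slc20a1, Slc20a2 and Phex, together with Fam20c, a kinase of secreted proteins. They were chosen by name, and every array probe annotated to one of these symbols was taken. Of the 45281 probes on the array 9 matched, for 6 of the 7 genes. Enpp1, which encodes the enzyme that makes pyrophosphate from nucleotides, had no annotated probe and was not analysed here. Of the 9 probes 7 passed the filter on low values, which kept 16431 probes with a detection p under 0.01 on at least 4 of the 12 arrays. The 6 genes each had at least 1 kept probe.

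RNA came from the MC3T3 sc4 line, clonal mouse osteoblasts from calvaria that differentiate in culture, and was hybridised to Illumina mouse BeadChips with 4 arrays in each of 3 groups. The first group had been exposed for 6 h and the second for 2 h to 20 µM SAHA (vorinostat), an inhibitor of histone deacetylases, and the third had been given its solvent DMSO. Shared by the groups were osteogenic medium up to day 4, which held beta-glycerol phosphate at 4 mM and ascorbic acid at 50 µg/ml, and a digestion with collagenase for 40 min before harvest. The labels give no exposure time for the DMSO cells, and their treatment text mentions a 2 h exposure alone, so that time in SAHA and time in culture cannot be told apart. It is 1 clonal line, and nothing states that separate cultures lie behind the 4 arrays of each group. The p-values therefore reflect the spread between arrays, which may be technical.

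Mineral forms when phosphate outweighs pyrophosphate, an inhibitor of crystal growth, near matrix vesicles and collagen. The phosphatase encoded by Alpl (tissue-nonspecific alkaline phosphatase) destroys extracellular pyrophosphate, while Phospho1 encodes a phosphatase that frees phosphate from phosphocholine and phosphoethanolamine inside matrix vesicles. Slc20a1 and Slc20a2 encode the sodium-coupled phosphate transporters PiT-1 and PiT-2, Phex encodes a cell-surface peptidase whose loss causes X-linked hypophosphatemia, and Fam20c encodes the Golgi kinase that phosphorylates matrix proteins such as osteopontin.

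The start regions of Alpl and Phospho1, which fell after SAHA, and of Fam20c, which rose, are shown so that their base composition and promoter motifs can be compared. They run from 250 bases before to 50 bases after a RefSeq start in build GRCm38.p6, 5′ to 3′ on the gene's strand. Promoters were listed for 6 of the 7 genes in 8 windows, Slc20a2 being the gene without one. Capitals mark matches to any of 3 promoter motifs, each searched on both strands. The GC box, bound by Sp family factors, was searched as GGGCGG. For the TATA box, which positions the transcription start, the letters searched were TATAAA. The core bound by Runx factors, the family of the osteoblast regulator Runx2, was searched with the letters ACCACA. Alpl has 2 listed starts, at chr4:137796335-137796634 and chr4:137766426-137766725, both on the minus strand. Phospho1 starts at chr11:95824250-95824549 and Fam20c at chr5:138754831-138755130, both on the plus strand.
Alpl, first start: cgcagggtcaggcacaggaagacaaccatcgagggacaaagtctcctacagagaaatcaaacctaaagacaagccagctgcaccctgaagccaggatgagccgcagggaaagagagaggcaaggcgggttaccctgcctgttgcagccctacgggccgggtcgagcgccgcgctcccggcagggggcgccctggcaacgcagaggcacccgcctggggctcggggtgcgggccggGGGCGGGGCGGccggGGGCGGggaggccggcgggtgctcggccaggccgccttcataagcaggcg
Alpl, second start: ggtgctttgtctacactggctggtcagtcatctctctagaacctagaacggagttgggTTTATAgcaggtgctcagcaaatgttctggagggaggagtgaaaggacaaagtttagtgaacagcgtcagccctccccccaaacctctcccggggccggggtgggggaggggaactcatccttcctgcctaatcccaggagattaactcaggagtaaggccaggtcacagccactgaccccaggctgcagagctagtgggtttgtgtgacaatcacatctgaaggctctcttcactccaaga
Phospho1: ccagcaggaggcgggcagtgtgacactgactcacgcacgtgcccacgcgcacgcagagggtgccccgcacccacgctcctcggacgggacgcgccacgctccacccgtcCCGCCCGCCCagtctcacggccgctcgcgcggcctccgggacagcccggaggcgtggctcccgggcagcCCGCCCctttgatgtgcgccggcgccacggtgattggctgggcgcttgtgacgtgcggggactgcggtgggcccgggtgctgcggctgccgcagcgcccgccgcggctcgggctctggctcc
Fam20c: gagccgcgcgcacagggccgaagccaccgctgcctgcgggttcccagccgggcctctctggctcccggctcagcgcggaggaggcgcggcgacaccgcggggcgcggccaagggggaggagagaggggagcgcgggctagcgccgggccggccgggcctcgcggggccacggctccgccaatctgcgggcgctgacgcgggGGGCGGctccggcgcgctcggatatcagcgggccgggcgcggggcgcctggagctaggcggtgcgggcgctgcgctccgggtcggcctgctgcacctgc
The first Alpl window held 3 GC boxes, 26 CpG dinucleotides and 70% G or C. The second held no GC box, 1 match to the TATA letters, 4 CpG dinucleotides and 54.3% G or C. That match reads TTTATA, so it is on the opposite strand, and it lies in the upstream part of the window, far from the start. It is a match of letters only and is not shown to act as a TATA box. The Phospho1 window held 3 GC boxes, 42 CpG dinucleotides and 77% G or C, and the Fam20c window held 1 GC box, 47 CpG dinucleotides and 80.7% G or C. No base lay in matches to 2 different motifs. In the first Alpl window and in the Phospho1 window, 2 of the 3 GC boxes overlap each other. Among 32851 mouse windows of the same length, 35.7% held a GC box, 13.6% a TATA box and 16.8% a Runx core. None of the 4 windows printed held the letters searched for the Runx core, ACCACA or TGTGGT on the other strand. Other forms of the core were not searched, so this does not show that a Runx site is absent. Of the 4 member windows not printed, the first of 2 for Slc20a1 held 2 GC boxes, 1 TATA box and 1 Runx core, and the second held 1 GC box. The Enpp1 window held 1 GC box and 1 Runx core, and the Phex window held no match. The single Alpl probe does not tell transcripts from the 2 starts apart.

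Levels below are background-corrected, quantile-normalized log2 intensities, and a probe was called at a Benjamini-Hochberg adjusted p under 0.05 in the limma fit over all kept probes. Values after ± are SDs for group means and standard errors for log2 changes, with 4 arrays a group. Arrays are named by the numbers in the deposited table, 9 to 12 for SAHA 6 h, 5 to 8 for SAHA 2 h and 1 to 4 for DMSO. Detected probes numbered 15264 to 15705 on SAHA 6 h arrays, 14904 to 15982 on SAHA 2 h arrays and 15610 to 16065 on DMSO arrays, and array 8 had the fewest. A large share of all kept probes was called, 72.9% at 6 h against DMSO, 53.5% at 2 h against DMSO and 56.3% at 6 h against 2 h. The called probes were 51.1% higher at 2 h, against 65.5% with median scaling in place of quantile normalization and 75% with none. At 6 h against 2 h they were 52.2% higher, 33.8% with median scaling and 18.2% with no normalization. Without normalization the median of all probes was shifted by 0.20 at 2 h against DMSO, and with median scaling by 0.11.

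Of the 7 kept probes, 5 were called at 6 h against DMSO, 3 lower and 2 higher, where 36% of all kept probes were lower and 36.9% higher. At 2 h against DMSO 4 were called, 2 lower and 2 higher, with a background of 26.1% lower and 27.3% higher. At 6 h against 2 h 4 were called, 3 lower and 1 higher, with a background of 26.9% lower and 29.4% higher. The share of the members called was thus near that of all probes in each comparison. Groups did not overlap for 3 of the 7 probes at 6 h against DMSO (65.9% of all kept probes), for 4 at 2 h against DMSO (49%) and for 4 at 6 h against 2 h (50%). The median log2 change of the 7 probes was -0.12 at 6 h, against 0.01 over all kept probes, and -0.15 at 2 h, against 0.00. Both comparisons with DMSO use the same 4 control arrays.

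**Figure D1:**
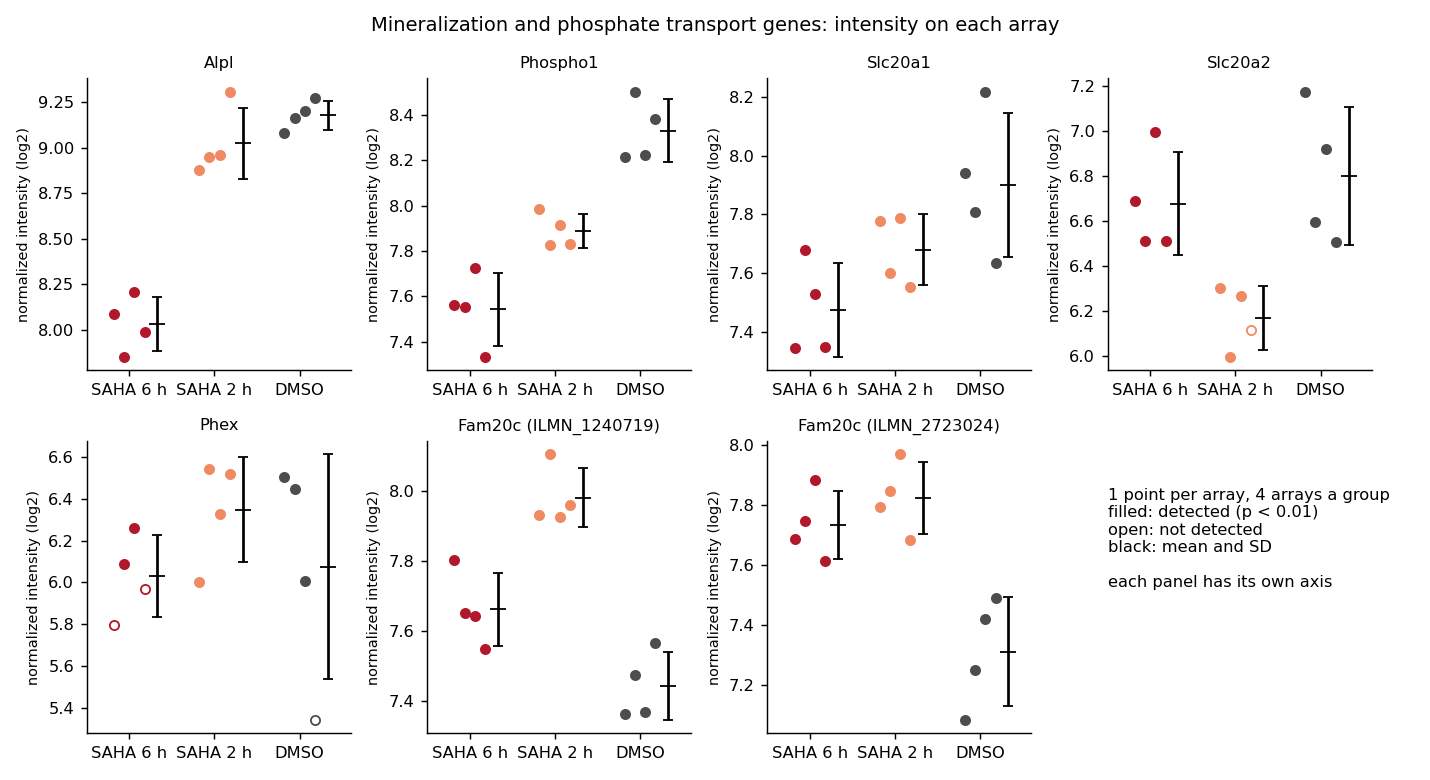
Normalized log2 intensity of each kept probe on every array, SAHA 6 h left of SAHA 2 h left of DMSO, with points for arrays and bars for the group mean and SD (n = 4). The Alpl points at 6 h lie between 7.85 and 8.21, all below the other groups, while both Fam20c probes lie above DMSO at 2 h.

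Alpl fell at 6 h and was not called at 2 h. Its probe ILMN_2661287 read 8.09, 7.85, 8.21 and 7.99 at SAHA 6 h, 8.87, 8.95, 8.96 and 9.31 at SAHA 2 h, and 9.08, 9.16, 9.20 and 9.27 in DMSO. The 4 arrays at 6 h were lower than all 8 others, whereas 2 h and DMSO arrays overlapped, array 8 being the highest of the 12. At 6 h the level was 2.21-fold lower than in DMSO (log2 change -1.15 ± 0.10, adjusted p = 1.782e-07), a change larger in size than that of 85.6% of kept probes. In bulk RNA, fewer cells expressing a gene and less RNA per cell cannot be told apart.

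At 2 h the Alpl change was -0.15 ± 0.10 (adjusted p = 0.2096, 95% interval -0.37 to 0.06). Without array 8 it was -0.25 and passed the threshold (adjusted p = 0.02558), but it did so with no other array left out. Over the arrays left out in turn it ranged from -0.25 to -0.11 (adjusted p up to 0.4385). Between the 2 exposures the level at 6 h was 1.99-fold below that at 2 h (-0.99 ± 0.10, adjusted p = 1.995e-06), larger in size than for 93.5% of kept probes. The intensities before correction were 310 ± 25 at SAHA 6 h, 645 ± 65 at SAHA 2 h and 640 ± 78 in DMSO.

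Phospho1 was lower at both times. Its probe ILMN_1214899 read 7.56, 7.55, 7.73 and 7.33 at SAHA 6 h, 7.98, 7.83, 7.92 and 7.83 at SAHA 2 h, and 8.21, 8.50, 8.22 and 8.38 in DMSO. No array of one group reached the range of another, so the 3 groups were fully ordered. The level was 1.72-fold below DMSO at 6 h (-0.79 ± 0.09, adjusted p = 2.827e-06) and 1.36-fold below it at 2 h (-0.44 ± 0.09, adjusted p = 0.0009525). Between 6 h and 2 h the difference was -0.35 ± 0.09 (adjusted p = 0.005026). Without normalization between arrays the call at 2 h was lost (-0.24, adjusted p = 0.3354), while relative to the median of all probes under that setting the change was -0.43.

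Of the transporters, Slc20a1 was called lower at 6 h and Slc20a2 at 2 h. For Slc20a1 (PiT-1) probe ILMN_2589412 read 7.34, 7.68, 7.53 and 7.35 at SAHA 6 h, 7.78, 7.60, 7.79 and 7.55 at SAHA 2 h, and 7.94, 7.81, 8.22 and 7.63 in DMSO. DMSO array 4 lay within the range of the treated arrays, so each treated group overlapped the controls. The level fell at 6 h by 0.43 ± 0.12 (adjusted p = 0.005116), and the change at 2 h was -0.22 ± 0.12 (adjusted p = 0.134). Without DMSO array 4 the 2 h change was called too (-0.31, adjusted p = 0.0383), but it was called with no other array left out. Over the arrays left out in turn it ranged from -0.31 to -0.11 (adjusted p up to 0.3964). The difference between 6 h and 2 h was -0.21 ± 0.12 (adjusted p = 0.1558), with a 95% interval from -0.46 to 0.05. Without normalization between arrays that difference was called (-0.45, adjusted p = 0.04668). The other Slc20a1 probes, ILMN_1247410 and ILMN_2563813, came from cDNA clone records, were detected on 0 of 12 arrays and were left out by the filter.

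For Slc20a2 (PiT-2) the single probe ILMN_1229092, from a cDNA clone record and detected on 11 of 12 arrays, read 6.69, 6.51, 6.997 and 6.51 at SAHA 6 h, 6.30, 6.00, 6.27 and 6.12 at SAHA 2 h, and 7.18, 6.60, 6.92 and 6.51 in DMSO. The 4 arrays at 2 h were the lowest of the 12, and 6 h and DMSO overlapped. The array without detection was array 8, at 2 h, so the 2 h group lay near the detection limit. The level at 2 h was 1.55-fold below DMSO (-0.63 ± 0.15, adjusted p = 0.002466), and without background correction the change was -0.32 and still called. At 6 h the change from DMSO was -0.12 ± 0.15 (adjusted p = 0.4681, 95% interval -0.44 to 0.19). The level at 6 h was 1.42-fold above that at 2 h (0.51 ± 0.15, adjusted p = 0.00936), a call lost without normalization between arrays (0.30, adjusted p = 0.2038).

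Phex was near the detection limit, with its probe ILMN_1243830 detected on 2 of 4 SAHA 6 h arrays, 4 of 4 SAHA 2 h arrays and 3 of 4 DMSO arrays. It read 5.80, 6.09, 6.26 and 5.97 at SAHA 6 h, 6.00, 6.55, 6.33 and 6.52 at SAHA 2 h, and 6.51, 6.45, 6.01 and 5.34 in DMSO. The groups overlapped throughout, and the DMSO arrays alone spanned the range of nearly all others. The change was -0.05 ± 0.22 at 6 h (adjusted p = 0.8572, 95% interval -0.52 to 0.42) and 0.27 ± 0.22 at 2 h (adjusted p = 0.3164, 95% interval -0.20 to 0.74). These intervals include changes as large as those called for Slc20a1 and Fam20c. Without normalization between arrays, Phex was called lower at 6 h than at 2 h (-0.50, adjusted p = 0.02391), against -0.32 ± 0.22 (adjusted p = 0.2309) with it.

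Fam20c was higher after SAHA by both of its probes. Probe ILMN_1240719 read 7.80, 7.65, 7.64 and 7.55 at SAHA 6 h, 7.93, 8.10, 7.92 and 7.96 at SAHA 2 h, and 7.36, 7.47, 7.37 and 7.57 in DMSO. Probe ILMN_2723024 read 7.69, 7.75, 7.88 and 7.61 at SAHA 6 h, 7.79, 7.85, 7.97 and 7.68 at SAHA 2 h, and 7.09, 7.25, 7.42 and 7.49 in DMSO. On both probes all 4 arrays at 2 h lay above all DMSO arrays, and at 6 h this held for the second probe.

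At 2 h the probes gave a level 1.45-fold above DMSO (0.54 ± 0.07, adjusted p = 3.392e-05) and 1.43-fold above it (0.51 ± 0.10, adjusted p = 0.0004876). At 6 h they gave 0.22 ± 0.07 (adjusted p = 0.01578) and 0.42 ± 0.10 (adjusted p = 0.001262). The first of these 6 h calls was lost without array 9 (0.17, adjusted p = 0.0533), with median scaling (0.18, adjusted p = 0.2133) and with no normalization (0.15, adjusted p = 0.5144), and the second with no normalization (0.35, adjusted p = 0.09854). The probes disagreed on whether 6 h was below 2 h, with -0.32 ± 0.07 for ILMN_1240719 (adjusted p = 0.002223) and -0.09 ± 0.10 for ILMN_2723024 (adjusted p = 0.4485).

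**Figure D2:**
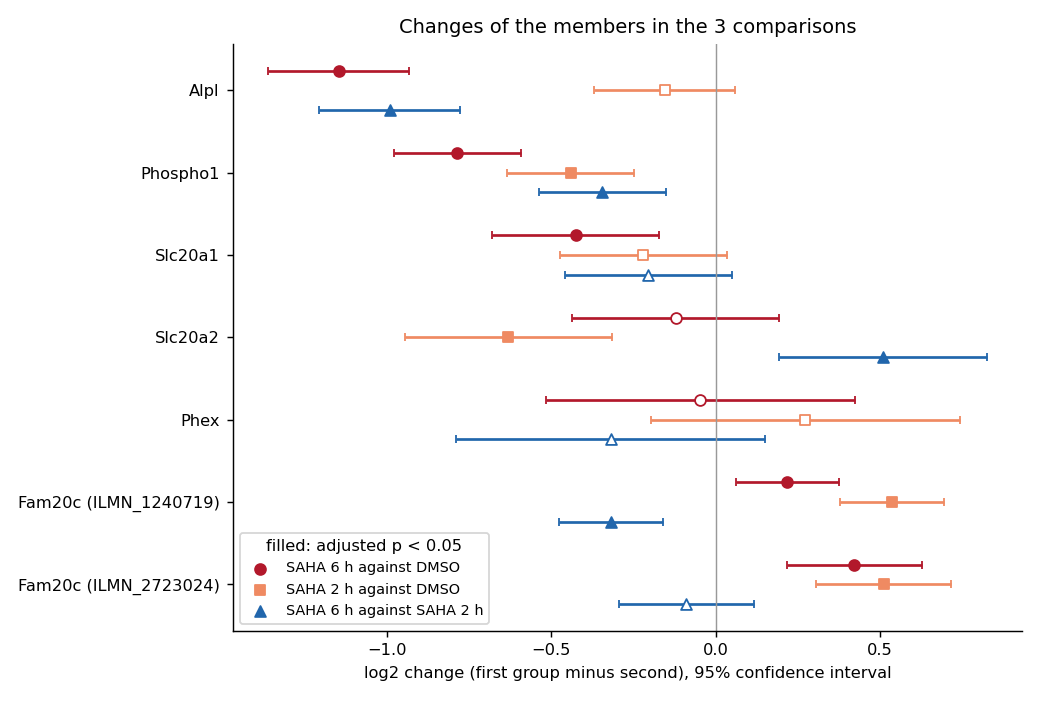
Log2 change of each kept probe for SAHA 6 h against DMSO, SAHA 2 h against DMSO and SAHA 6 h against SAHA 2 h, with 95% intervals from the limma fit and filled markers for called probes. Alpl lies at -1.15 for 6 h and at -0.15 for 2 h, and Slc20a2 was called lower at 2 h (-0.63) but not at 6 h (-0.12).

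**Figure D3:**
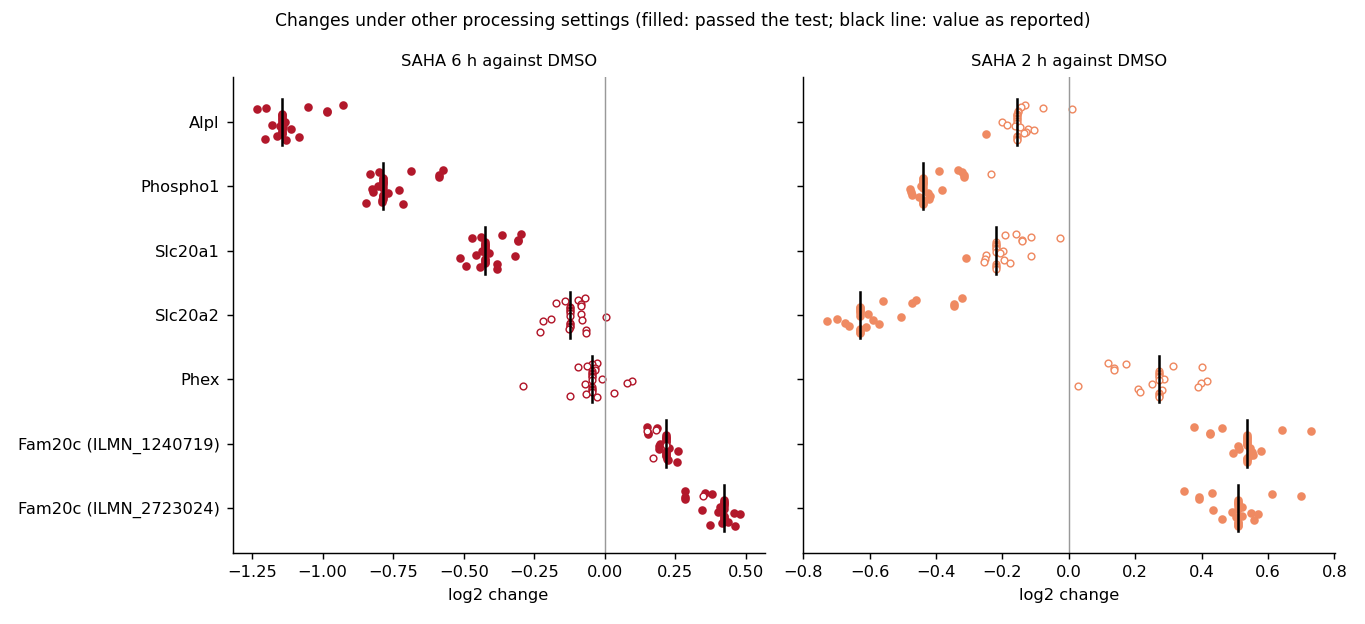
Log2 change of each kept probe at SAHA 6 h and at SAHA 2 h against DMSO, as reported (black line) and under each alternative, including each array left out in turn (points, filled where called). Alpl at 6 h stays negative under every alternative run, while Slc20a2 and Phex at 6 h lie on both sides of 0.

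Genes with the most similar course were sought for Alpl and Phospho1, the members called at 6 h with a log2 change of at least 0.5 in size. The measure was the root mean square difference over the 12 arrays between log2 values taken relative to each gene's DMSO mean, over 8915 genes. For Alpl the nearest were Igf1, a growth factor (0.0799), Mustn1 (0.0962) and Cryba4 (0.101). At 6 h Igf1 had a log2 change of -1.12, Mustn1 of -1.26 and Cryba4 of -1.15, and at 2 h the 3 genes had -0.08, -0.22 and -0.17 in the same order. For Phospho1 the nearest were Mrpl36, a mitochondrial ribosomal protein gene (0.0744), Elovl1, a fatty acid elongase gene (0.082), and Manbal (0.0926). Their changes at 6 h were -0.78, -0.85 and -0.80, and at 2 h -0.47, -0.47 and -0.41. All of these genes were selected for closeness on these same arrays, so their similar changes are no separate result.

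Among 33 other genes of mineralization in 4 lists, 2 (Ankh and Spp1) had no annotated probe, 12 had no kept probe and 19 were measured, each through the brightest of its kept probes. At 6 h against DMSO 4 of the 19 rose, 7 fell and 8 were not called, while 77.4% of all 9153 genes were called, 38.9% higher and 38.5% lower. At 2 h 3 rose, 4 fell and 12 were not called, with 58.6% of all genes called, 27.8% higher and 30.7% lower. At 6 h against 2 h 3 rose, 5 fell and 11 were not called, with 62.7% of all genes called, 34.4% higher and 28.4% lower. The median log2 change of the 19 was -0.07 at 6 h, against 0.01 over all genes, and 0.03 at 2 h, against -0.02. With replicate number as a block, on the authors' normalized values, 11 of the 19 were called at 2 h. At 6 h 7 were called with median scaling and 7 with no normalization, in place of 11.

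The list of pyrophosphate and phosphate release had 6 measured genes, of which 2 rose, 1 fell and 3 were not called at 6 h. Smpd3 encodes neutral sphingomyelinase 2, whose loss in the mouse impairs bone mineralization. It read 10.66, 10.62, 10.84 and 10.80 at SAHA 6 h, 9.71, 9.72, 9.79 and 9.80 at SAHA 2 h, and 9.45, 9.44, 9.07 and 9.27 in DMSO. The 3 groups did not overlap, and the level was 2.68-fold above DMSO at 6 h (1.42 ± 0.08, adjusted p = 1.847e-09). At 2 h the change was 0.45 ± 0.08 (adjusted p = 0.0003764).

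Ppa2, the mitochondrial pyrophosphatase gene, was 2.23-fold below DMSO at 6 h (-1.16 ± 0.07, adjusted p = 1.289e-09) and had a log2 change of -0.23 ± 0.07 at 2 h (adjusted p = 0.007994). The 2 h call was lost with median scaling and with no normalization. Its 3 other kept probes gave -1.21, -1.22 and -1.02 at 6 h. Nt5e, which encodes the ecto-nucleotidase CD73, rose by 0.25 ± 0.08 at 6 h (adjusted p = 0.009416) and 0.40 ± 0.08 at 2 h (adjusted p = 0.00053). The 6 h call of Nt5e was lost with median scaling and with no normalization.

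In the list of phosphate transport and its hormone axis 3 of 9 genes were measured, and at 6 h 1 rose, 1 fell and 1 was not called. Xpr1, the gene of a cellular phosphate exporter, read 12.01, 12.03, 12.01 and 12.05 at SAHA 6 h, 10.83, 10.93, 10.82 and 10.87 at SAHA 2 h, and 10.23, 10.30, 10.30 and 10.28 in DMSO. The 3 groups were far apart, and the level was 3.36-fold above DMSO at 6 h (1.75 ± 0.05, adjusted p = 1.799e-12). At 2 h the change was 0.58 ± 0.05 (adjusted p = 1.635e-07), and a second Xpr1 probe detected on all 12 arrays gave 1.78 at 6 h. A further kept Xpr1 probe, detected on 4 of 12 arrays, was near background and gives no usable change. Fgfr1, a receptor of FGF23 signalling, fell by 0.47 ± 0.11 at 6 h (adjusted p = 0.001277) and stood at 0.14 ± 0.11 at 2 h (adjusted p = 0.2866). The sodium-coupled transporters Slc34a1, Slc34a2 and Slc34a3 had no kept probe, and neither did Fgf23, Kl and Galnt3. No probe of these genes was detected on any array.

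Of the secretory kinases and their SIBLING substrates, 4 genes were measured, and at 6 h 0 rose, 3 fell and 1 was not called. Fam20a, the pseudokinase known to raise the activity of the Fam20c protein, read 9.04, 9.35, 9.38 and 9.12 at SAHA 6 h, 10.78, 10.72, 10.63 and 10.43 at SAHA 2 h, and 11.17, 11.28, 11.08 and 11.13 in DMSO. It was 3.84-fold below DMSO at 6 h (-1.94 ± 0.09, adjusted p = 2.257e-10) and had a log2 change of -0.52 ± 0.09 at 2 h (adjusted p = 0.000236). A second Fam20a probe was called lower as well, but it was detected on 9 of 12 arrays, so no size is given for it. The direction for Fam20a was thus opposite to that for both Fam20c probes at each time. Pkdcc, a secreted tyrosine kinase gene, fell by 0.58 ± 0.10 at 6 h (adjusted p = 0.0001189) and by 0.51 ± 0.10 at 2 h (adjusted p = 0.000661). Fam20b, the gene of a kinase of the glycosaminoglycan linkage, had a log2 change of -0.18 ± 0.06 at 6 h (adjusted p = 0.01973). That call was lost with median scaling, with no normalization and without array 12 (adjusted p = 0.07189). The 2 h calls of Fam20a and Pkdcc were lost with no normalization. Ibsp, the bone sialoprotein gene, had a value of 0.08 ± 0.14 at 6 h on its brightest probe and was not called, while its 2 other probes gave 0.17 and 0.20 and were called.

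Of 6 mineral-binding matrix and annexin genes, 1 rose, 2 fell and 3 were not called at 6 h, and at 2 h limma called 0 of the 6, with 1 (Anxa5) at an unadjusted p under 0.05. Mgp, which encodes the calcification inhibitor matrix Gla protein, fell by 0.36 ± 0.07 at 6 h (adjusted p = 0.0002698). Calls for Anxa2 and Anxa6 at 6 h were small (-0.13 ± 0.05 and 0.19 ± 0.07) and were not shared by the other kept probe of either gene (-0.08 and -0.13). Both calls were lost with median scaling, with no normalization and with single arrays left out. These were arrays 3, 11 and 12 for Anxa2 (adjusted p up to 0.07024) and arrays 3 and 9 for Anxa6 (adjusted p up to 0.06768). Bglap, Sparc and Anxa5 were not called.

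**Figure D4:**
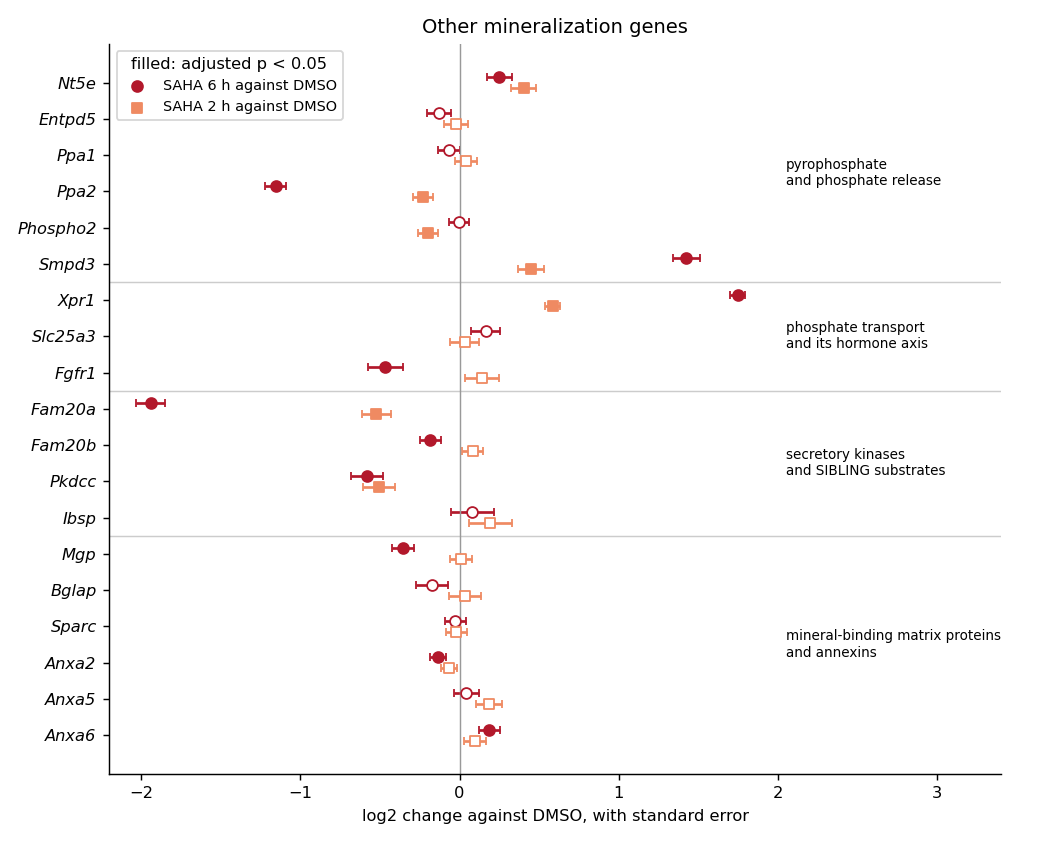
Log2 change of the 19 measured genes of the other 4 lists at SAHA 6 h and SAHA 2 h against DMSO, with standard errors from the limma fit and filled markers for called genes. Xpr1 (1.75) and Smpd3 (1.42) lie highest at 6 h, and Fam20a (-1.94) and Ppa2 (-1.16) lowest.

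The osteoblast label was set against marker genes. Of 8 osteoblast markers 6 had a probe, and all 6 were detected on all 12 arrays. Their summed intensity before correction was 106168 to 125061 at SAHA 6 h, 103385 to 141346 at SAHA 2 h and 113683 to 137499 in DMSO. Over the arrays Sparc read 37915 to 52513 and Col1a1 33585.1 to 46632.3, but Sp7 only 332.368 to 7184.85. The sum therefore hardly reflects Sp7. Of these 6 markers 1 was called, Sp7, the gene of the osteoblast transcription factor osterix, with log2 changes of -4.23 ± 0.07 at 6 h and -2.10 ± 0.07 at 2 h. The 5 adipocyte markers and the osteocyte markers Sost, Dmp1 and Fgf23 were detected on no array. The remaining osteocyte marker, Mepe, was detected on 1 of 12 arrays and had no kept probe. Among macrophage and osteoclast markers Ptprc and Acp5 were detected on no array, and 3 of 6 were measured. Of these Ctsk was detected on all 12 arrays, Cd14 on 10 and Csf1r on 4. All 3 were called lower at 6 h, and 1, Cd14, at 2 h. At 6 h Cd14 was detected on 2 of 4 arrays and Csf1r on 0, so both lay near background there. The summed intensity of that list before correction was 10023.5 to 13841.6 at SAHA 6 h, 12986.1 to 23566.3 at SAHA 2 h and 14528.2 to 18152.6 in DMSO. Nearly all of it was Ctsk (9606.21 to 22939.3), against 120.338 to 323.486 for Cd14 and 101.477 to 160.883 for Csf1r. The highest Ctsk value lay on array 5, which also had the largest total intensity of the 12 arrays (48048910). Among chondrocyte markers Acan and Col10a1 were detected on no array, but Sox9 and Col2a1 were detected on all 12 and Comp on 7. Of these 3 measured markers 2, Col2a1 and Comp, fell at 6 h, and 2, Sox9 and Comp, at 2 h. Comp was detected on 0 of 4 arrays at 6 h. The summed intensity of the list before correction was 3072.78 to 3885.76 at SAHA 6 h, 3649.46 to 5065.33 at SAHA 2 h and 3830.25 to 5008.02 in DMSO. Most of it came from Sox9 (2230.07 to 3701.97 over the arrays). The muscle marker Myod1 was detected on no array, but Des was detected on all 12, Acta1 on 9 and Myog on 5. Of these 3 measured muscle markers 1, Des, fell at 6 h, and 2, Des and Acta1, at 2 h. Some markers of cell types other than osteoblasts were thus detected as well. Of all 9153 genes, 38.5% were called lower at 6 h and 30.7% at 2 h, so these few marker calls are no result about a cell type. The part of these marker lists in the changes of Alpl and Phospho1 was not tested.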

How the data were processed

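Per the file headers, the deposited scanner table holds a linear intensity that was not normalized and a detection p-value for each probe and array. The authors' second deposited table holds normalized intensity values on a linear scale, with a method not given in the sources used here. All columns were matched to groups, and 0 columns were left without a sample.

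From the first table, intensities were background-corrected with normexp from the detection p-values, given an offset of 16, quantile-normalized and log2-transformed by neqc (limma 3.58.1, R 4.3.3). The offset lowers fold changes where signal is dim, and normalization removes a shift shared by all probes. In limma, 1 linear model covered the 3 groups, with two-sided moderated tests in 3 comparisons, for all 16431 kept probes, or for 9153 genes with 1 probe each. The number of arrays limits precision (median standard error 0.0891 per log2 change). Array pairs differed by an SD of 0.174 to 0.263 within groups and 0.539 to 0.86 between groups. No batch, slide or date is given in the labels or headers used here. The code was tested on simulated data.

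The members, gene lists and tests were chosen with earlier results of these data known. Named genes are the members, genes of the lists, and the 3 genes nearest in course to a member called at 6 h with a log2 change of at least 0.5. Replicate numbers stand only in the authors' normalized table. There, deviations from group means were correlated between same-numbered samples. The correlation was 0.17 to 0.394 for SAHA 2 h with DMSO, where each sample correlated best with its own number. It was 0.168 to 0.348 for SAHA 6 h with SAHA 2 h, where replicate 2 correlated best with number 1. For SAHA 6 h with DMSO it was 0.0134 to 0.121, and only replicate 2 correlated best with its own number. The numbers may therefore not pair the samples throughout. Alternatives covered background, offset, normalization, filter, probe choice, variance model, array weights, threshold, the block and each array left out. Promoters come from RefSeq (GRCm38.p6). Enpp1 was not analysed here.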

Additional observations from a re-analysis of the deposited data

Results flagged for a closer look

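The change at 6 h differed from the change at 2 h for 4 of the 7 probes, by the limma comparison of the 2 exposures (n = 4 arrays a group), in which the shared DMSO arrays cancel. That share is close to the 56.3% of all kept probes called in the same comparison, so the count is no result about these genes. The difference of log2 changes was -0.99 for Alpl (adjusted p = 1.99e-06) and -0.35 for Phospho1 (adjusted p = 0.00503), with all 4 arrays at 6 h below all 4 at 2 h for both genes. For Slc20a2 it was 0.51 (adjusted p = 0.00936), with all 4 arrays at 6 h above all 4 at 2 h. For Fam20c probe ILMN_1240719 it was -0.32 (adjusted p = 0.00222), while the other Fam20c probe gave -0.09 (adjusted p = 0.4485). No single array stood apart from its group of 4 among the 21 groups examined by Dixon's criterion, which chance alone would meet in about 1 of 20.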

How the results depend on the processing

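Most results kept their direction and their side of the threshold. Of the values for single probes under alternatives, 1168 did so, 34 lost a call, 4 gained one and 7 reversed. This tally takes the member probes in every comparison, but the other mineralization genes only where they were called, so calls gained among those genes are not in it. Alternatives that changed only the filter, probe choice, variance model, threshold or groups fitted used the same normalized values, so directions could not change there. Fits with 1 array left out share most of their data with the main fit. Without normalization between arrays, 3 member probes and 7 other mineralization genes were called at 6 h against DMSO and 5852 probes at 6 h against 2 h, in place of 9253. Median scaling also gave 7 other mineralization genes at 6 h. With the replicate block on the authors' values 11 of those genes were called at 2 h, in place of 7 in the main fit and 9 on the same values without the block, and no call of a member probe differed with the block. With 1 probe a gene, 5360, 7083 and 5743 were called at 2 h, at 6 h and at 6 h against 2 h, from fewer probes tested. Without normalization Alpl was at 0.01055 at 2 h, and Phospho2 at 0.028 at 2 h and at -0.06465 at 6 h against 2 h, which reversed their signs. With 1 array left out, Slc20a2 at 6 h ranged from -0.23 to 0.003084, and Phex at 6 h from -0.291 to 0.10, reversing to 0.10 without DMSO array 1, 0.08 without DMSO array 2 and 0.03 without SAHA 6 h array 9. The cause was not tested. Over arrays left out in turn, 4 to 5 member probes were called at 2 h and 4 to 5 at 6 h, and 6 to 8 other mineralization genes at 2 h. The signal of Phex and Slc20a2 lay near background, which limits what could be detected for them.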
